A study of Mus musculus with 6 samples.

Results

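Short-chain fatty acid uptake and sensing in the colon was described through 8 genes: the carriers Slc16a1, Slc16a3 and Slc5a8, the carrier chaperones Bsg and Emb, the receptors Ffar2 and Hcar2, and the activating enzyme Acsm3. Members were all probe sets whose platform annotation names exactly 1 of these genes, which gave 12 probe sets for 8 genes, of 18193 genes with a probe set of their own. Signals came from Affymetrix MOE430 2.0 arrays hybridised with RNA of whole colon. The 3 NHE3-/- arrays were from mice deficient in NHE3, an exchanger of sodium for protons whose gene is Slc9a3, and the 3 NHE3+/+ arrays from their wild-type littermates. All mice were 6 to 8 weeks old and none had been given a treatment. The allele, the strain, the sex and the number of animals per array are not in the sources used here, so the p-values measure the spread between these 6 arrays, which may be technical.

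Bacteria of the colon ferment fibre to acetate, propionate and butyrate, and butyrate is a main fuel of colonocytes. Butyrate crosses the cell membrane with protons through monocarboxylate transporters or with sodium through Slc5a8, and the transporters of the first kind need a chaperone of the basigin family to reach the surface. Inside the cell an acyl-CoA synthetase activates it for oxidation in mitochondria. Ffar2 and Hcar2 are G protein-coupled receptors that sense these acids from outside the cell.

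Of the 8 member probe sets bright enough to be tested, 4 were lower in NHE3-/- colon and none higher. They read 3 genes: the receptor Ffar2 through 2 probe sets, the activating enzyme Acsm3 and the carrier Slc16a1. Over all 27022 probe sets tested, 11.2% were called in either direction, 6.24% lower and 4.97% higher (limma, Benjamini-Hochberg adjusted p under 0.05). Ffar2 had the largest member change, with 0.439 and 0.468 times the NHE3+/+ mean signal on its 2 probe sets, and it held its call under all 15 processing alternatives. The calls of Acsm3 and Slc16a1 had adjusted p-values close to the threshold and were lost when arrays were left out. Slc16a3, Slc5a8, Bsg and Emb did not pass, and Hcar2 was too dim to test. Fold changes are log2(signal + 31.4), NHE3-/- over NHE3+/+. This scale understates the change of dim transcripts. The median over all probe sets tested was -0.10, and 0.01 when array medians were set equal.

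The trimmed mean signal was 500 on every array, but medians ran from 97.8 to 103.9 in NHE3-/- and from 99.7 to 121.4 in NHE3+/+ colon. NHE3+/+ array 2 had the highest median. With medians set equal, 738 probe sets were lower instead of 1685, and 1595 higher instead of 1342. Log2 signals correlated at 0.965 to 0.973 within genotypes and 0.932 to 0.959 between them. The brighter of 2 Slc9a3 probe sets had signals of 5970, 4266 and 3665 in NHE3-/- colon and 5908, 5647 and 6669 in NHE3+/+ colon (log2 fold change -0.42, SE 0.16; limma adjusted p = 0.120). The other had 473.4, 608.7 and 264.9 in NHE3-/- colon and 345.6, 344.8 and 107.8 in NHE3+/+ colon (0.76; limma adjusted p = 0.230). Neither passed, their signs differed, and where the probes lie relative to the disruption is unknown, so the genotype is not checked by them. Xist, the RNA of the inactive X chromosome in female cells, read 2639, 1929 and 12.3 on NHE3-/- arrays 1, 2 and 3 and between 2.0 and 8.0 on the NHE3+/+ arrays. High Xist signal was thus confined to NHE3-/- arrays 1 and 2, so genotype and sex cannot be fully told apart. Values with NHE3-/- array 3 alone are therefore given below for each tested member. In that fit the spread comes from the 3 NHE3+/+ arrays, and the lone NHE3-/- array is assumed to vary like them. All 12 listed markers of absorptive colonocytes were measured, with mean signals from 2735 to 46487 in NHE3-/- and from 4128 to 39776 in NHE3+/+ colon.

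The promoter windows of 6 of the 8 members were in the RefSeq table (build GRCm38.p6), each running from 250 bases before to 50 after an annotated start. Of these, the windows of Slc5a8 and Emb are not shown. Those of the 3 genes that were lower and of Slc16a3, whose mean signal was higher but did not pass, are shown for comparison. They are written 5′ to 3′ on the gene's strand. Capitals mark matches on either strand to ACGTG, the core of hypoxia response elements, TTTAT, the core of CDX sites, GGG and CC separated by any 5 bases, a loose form of NF-kappaB sites, and AGGTCA, a nuclear receptor half-site. A run of capitals can hold overlapping matches. For Ffar2, which has 4 windows, the window farthest upstream is shown.
Slc16a1, chr3:104638414-104638713, plus strand: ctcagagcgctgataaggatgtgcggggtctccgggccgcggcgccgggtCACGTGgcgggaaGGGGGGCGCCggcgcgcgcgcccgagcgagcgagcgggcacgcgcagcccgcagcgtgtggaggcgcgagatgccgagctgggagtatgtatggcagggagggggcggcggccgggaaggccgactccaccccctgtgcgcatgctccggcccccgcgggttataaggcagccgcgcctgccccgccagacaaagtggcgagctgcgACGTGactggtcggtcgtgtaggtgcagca
Slc16a3, chr11:120948817-120949116, plus strand: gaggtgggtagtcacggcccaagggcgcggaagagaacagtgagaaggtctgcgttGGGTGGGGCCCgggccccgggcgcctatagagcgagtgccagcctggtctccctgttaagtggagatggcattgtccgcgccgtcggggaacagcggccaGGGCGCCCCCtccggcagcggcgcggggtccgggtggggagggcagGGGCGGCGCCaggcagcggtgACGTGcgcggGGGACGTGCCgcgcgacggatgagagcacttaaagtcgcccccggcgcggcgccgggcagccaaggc
Ffar2, chr7:30823726-30824025, minus strand: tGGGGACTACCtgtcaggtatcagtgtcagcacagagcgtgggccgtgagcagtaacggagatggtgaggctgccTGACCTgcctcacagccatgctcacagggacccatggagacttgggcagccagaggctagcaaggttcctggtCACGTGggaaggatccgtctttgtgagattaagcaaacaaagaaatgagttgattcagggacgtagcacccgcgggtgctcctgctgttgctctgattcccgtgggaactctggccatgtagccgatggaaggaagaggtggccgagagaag
Acsm3, chr7:119760673-119760972, plus strand: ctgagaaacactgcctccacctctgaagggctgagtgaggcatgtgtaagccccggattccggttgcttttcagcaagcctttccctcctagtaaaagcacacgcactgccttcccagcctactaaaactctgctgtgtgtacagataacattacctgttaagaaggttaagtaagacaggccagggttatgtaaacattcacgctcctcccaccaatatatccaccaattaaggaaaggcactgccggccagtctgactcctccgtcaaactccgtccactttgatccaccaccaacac
ACGTG was found 3 times in the Slc16a1 window, 2 times in that of Slc16a3 and 2 times in that of Ffar2, counting the palindromic CACGTG once on each strand. The 3 other Ffar2 windows held no ACGTG and 3 CpG dinucleotides each, so the Ffar2 values depend on the window shown. The Acsm3 window held none of the 4 motifs. Among all 32851 windows of that length, 19.6% held ACGTG, 40.01% TTTAT, 50.8% the NF-kappaB form and 16.3% AGGTCA. The windows also differed in CpG dinucleotides, with 42 for Slc16a1, 36 for Slc16a3, 11 for Ffar2 and 7 for Acsm3, against a median of 7 over all windows.

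Slc16a1, the proton-coupled carrier MCT1 that transports butyrate and lactate, had signals of 9557, 10050.2 and 10234 on NHE3-/- arrays 1, 2 and 3, and 12209.5, 13035 and 12198.5 on the NHE3+/+ arrays. All 3 NHE3-/- arrays lay below all 3 NHE3+/+ arrays. Such a separation in either direction was seen for 32.3% of all probe sets tested, and NHE3-/- below NHE3+/+ for 20.1%. Signals averaged 9947 ± 350.1 in NHE3-/- and 12481 ± 480.0 in NHE3+/+ colon (SD, n = 3 each). The log2 fold change was -0.33 (SE 0.09; limma adjusted p = 0.0414). The call was lost without any of the 6 arrays (log2 fold changes from -0.35 to -0.29, limma adjusted p from 0.0699 to 0.129), with array medians set equal (-0.21, adjusted p = 0.294) and with NHE3-/- array 3 alone (-0.28, adjusted p = 0.272). Over all 15 alternatives the limma adjusted p ran from 0.0028 to 0.294. A dim probe set of Slc16a1 fell below the filter, with signals from 12.8 to 56.3 in NHE3-/- and 53.7 to 129.4 in NHE3+/+ colon.

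Slc16a3, the carrier MCT4 known for exporting lactate from glycolytic cells, went the other way in its mean. It had signals of 423.6, 328.4 and 532.0 on NHE3-/- arrays and 163.7, 223.4 and 329.4 on NHE3+/+ arrays. The groups overlapped by NHE3-/- array 2 and NHE3+/+ array 3, which had almost the same signal. The log2 fold change of 0.79 (SE 0.25; 95% interval 0.23 to 1.34) did not pass (limma adjusted p = 0.0687). It did pass without NHE3+/+ array 3 (1.02, adjusted p = 0.0361), with medians set equal (0.90, adjusted p = 0.0354) and with quantile normalization (0.94, adjusted p = 0.0357). With NHE3-/- array 3 alone it was 1.11 (limma adjusted p = 0.0945), and over the alternatives the adjusted p ran from 0.0354 to 0.209.

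Slc5a8, the sodium-coupled monocarboxylate transporter SMCT1 of the luminal membrane, had signals of 4703, 4321 and 4066 on NHE3-/- arrays and 6294, 4577 and 5368 on NHE3+/+ arrays. NHE3-/- array 1 lay above NHE3+/+ array 2, and the other arrays were ordered by genotype. The log2 fold change was -0.30 (SE 0.13; 95% interval -0.58 to -0.02), which did not pass after adjustment (limma adjusted p = 0.151). It stayed between -0.41 and -0.18 over the alternatives, with -0.40 for NHE3-/- array 3 alone, and passed in none of them.

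Of the chaperones, Bsg (basigin, CD147) is the partner of the carriers MCT1 and MCT4. Its signals were 17241, 16289 and 18337 in NHE3-/- colon and 16349, 16826 and 14354 in NHE3+/+ colon, so the groups overlapped. The log2 fold change was 0.13 (SE 0.10; 95% interval -0.09 to 0.35; limma adjusted p = 0.444), -0.05 with quantile normalization and 0.21 with NHE3-/- array 3 alone. Emb (embigin), a related chaperone described in the rat as a partner of MCT2, was dim. Its brightest probe set had signals of 103.0, 121.7 and 57.6 in NHE3-/- colon and 94.4, 150.3 and 87.9 in NHE3+/+ colon (log2 fold change -0.19, SE 0.31; 95% interval -0.88 to 0.49; limma adjusted p = 0.735). That interval includes a decrease as large as that of Acsm3. The log2 fold change of Emb was 0.04 without NHE3-/- array 3 and -0.65 with that array alone (limma adjusted p = 0.415). Its 2 other probe sets were below the filter, with group means of 36.7 and 54.8 for the brighter and 6.10 and 10.6 for the dimmer in NHE3-/- and NHE3+/+ colon.

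Ffar2, the receptor GPR43 for acetate, propionate and butyrate, found on enteroendocrine cells, colonocytes and leukocytes, was read by 2 probe sets that gave like values. The brighter had signals of 514.5, 565.5 and 398.9 in NHE3-/- colon and 1012, 1179 and 1176.5 in NHE3+/+ colon. The other had 486.2, 528.0 and 388.6 in NHE3-/- colon and 1173, 907.1 and 916.4 in NHE3+/+ colon. On both, every NHE3-/- array lay well below every NHE3+/+ array, and NHE3-/- array 3 was the lowest. The log2 fold changes were -1.15 (SE 0.16; limma adjusted p = 0.00120) and -1.05 (SE 0.16; limma adjusted p = 0.00279). Over the 15 alternatives they ran from -1.42 to -1.01 and from -1.28 to -0.93, with the highest limma adjusted p at 0.0224 and 0.0302. With NHE3-/- array 3 alone they were -1.42 and -1.28. The part of the Xist difference in the result was not tested. In whole colon, fewer cells that express a gene and less RNA per cell cannot be told apart.

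Hcar2, the receptor GPR109A for butyrate, nicotinic acid and the ketone body beta-hydroxybutyrate, was read by a probe set below the filter. It had signals of 4.7, 5.8 and 17.6 in NHE3-/- colon and 11.8, 32.0 and 16.9 in NHE3+/+ colon. These overlapped and lay among the dimmest on the arrays, and no test was made. The filter corresponds to a mean signal of about 60.2.

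Acsm3, a mitochondrial acyl-CoA synthetase that acts on butyrate and other short and medium chains, had signals of 1519, 1686 and 1437.5 in NHE3-/- colon and 3037, 2658 and 1762 in NHE3+/+ colon. All NHE3-/- arrays lay below all NHE3+/+ arrays, but NHE3+/+ array 3 came close to the NHE3-/- range. The log2 fold change was -0.64 (SE 0.18; limma adjusted p = 0.0414). The call was lost without any NHE3-/- array and without NHE3+/+ array 1 or 2 (log2 fold changes from -0.70 to -0.48, limma adjusted p from 0.0618 to 0.136), with medians set equal (-0.52, adjusted p = 0.129) and with NHE3-/- array 3 alone (-0.74, adjusted p = 0.131). Without NHE3+/+ array 3 it was -0.87 (limma adjusted p = 0.00423).

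**Figure D1:**
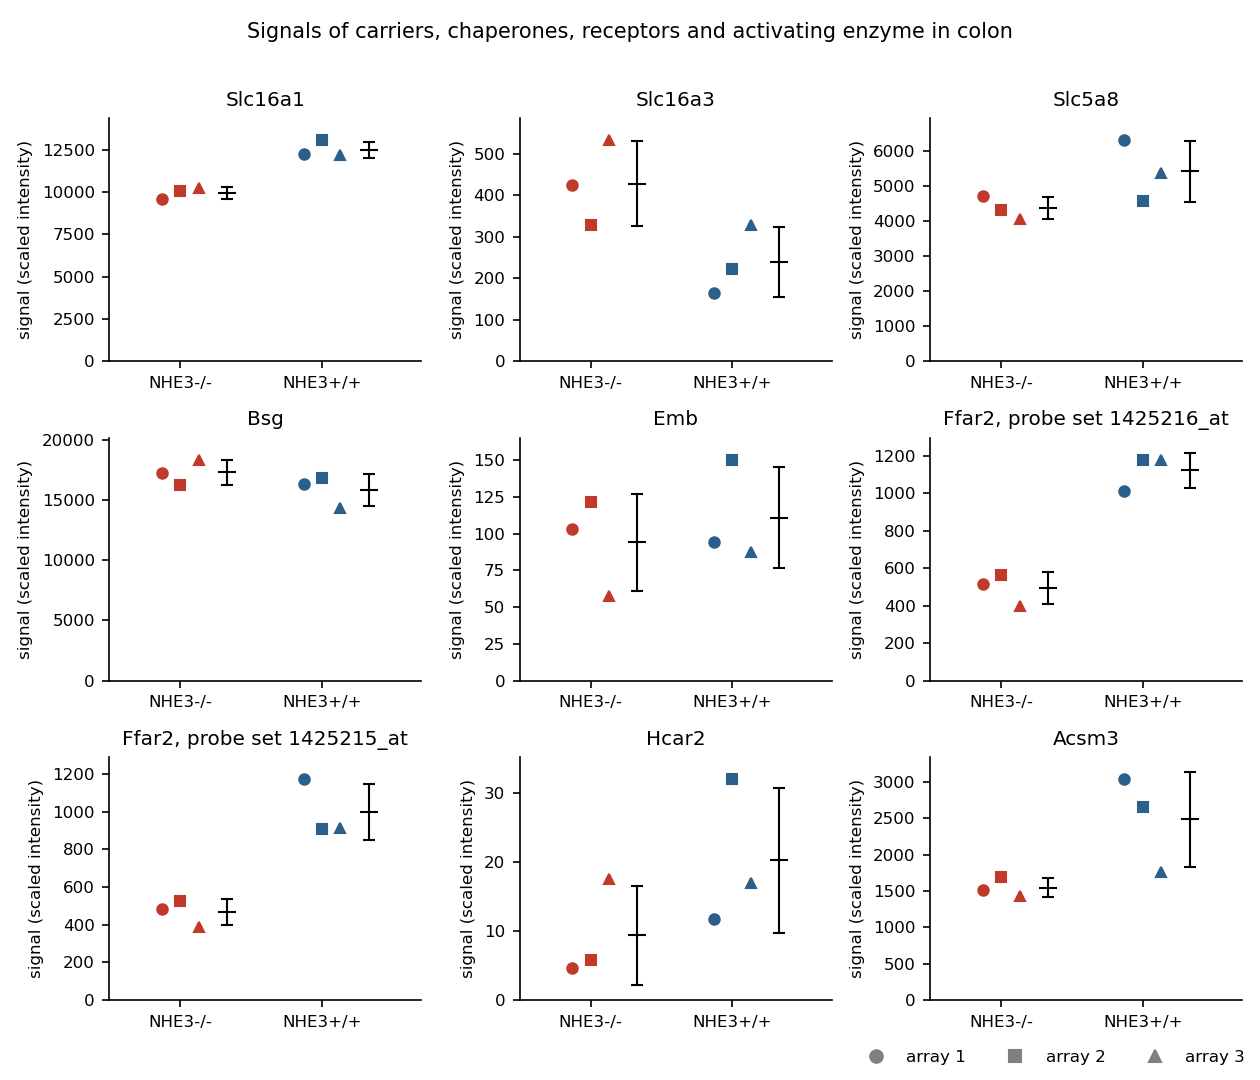
Signal (scaled intensity, linear axis from 0) of the brightest probe set of each of the 8 members, and of the other tested Ffar2 probe set, on 3 NHE3-/- and 3 NHE3+/+ arrays; symbols mark the array number and black bars the mean and SD. Both Ffar2 panels, Slc16a1 and Acsm3 show NHE3-/- arrays below all NHE3+/+ arrays, while the groups overlap for Slc16a3, Slc5a8, Bsg, Emb and Hcar2.

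The genes whose log2 signals followed the brighter Ffar2 probe set most closely over the 6 arrays were Dnajc1, which encodes a membrane co-chaperone of the endoplasmic reticulum, Lmo4, a LIM-domain transcriptional regulator, and Grin3a, a glutamate receptor subunit. Their Pearson correlations were 0.996, 0.994 and 0.994, the highest of 12553 genes, of which 369 exceeded 0.95. The genotype difference that all 6 arrays share enters these values, which are a description over 6 arrays.

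Beyond the members, 58 further genes of monocarboxylate transport, short-chain and long-chain fatty acid receptors, acyl-CoA activation, butyrate oxidation, receptor signalling and lactate conversion were listed. Of these, 42 had a tested probe set, each gene standing by its brightest, and 9 were higher and 5 lower in NHE3-/- colon. Over all genes counted this way 13.9% were called, 6.38% higher and 7.51% lower. The median log2 fold change of the list was 0.03, against -0.07 over all 12554 genes tested. Of the 14 called genes, Slc16a9 and Pyy kept their calls in all 15 alternatives and the other 12 lost them in at least 1. With NHE3-/- array 3 alone 3 of the list were higher and 2 lower, Slc16a7 and Slc16a9 being the lower ones.

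Other carriers were mostly of the SLC16 family. Of 12 tested genes in the carrier group, 3 were lower and 1 higher. Slc16a9, described as a carrier of carnitine and urate in humans, had 450.9, 492.7 and 373.1 in NHE3-/- colon and 793.0, 756.7 and 1102 in NHE3+/+ colon (log2 fold change -0.95, SE 0.18; limma adjusted p = 0.00702). Its arrays separated by genotype, although its 2 other probe sets had -0.50 and -0.21 and were not called. Slc16a7, the high-affinity pyruvate and lactate carrier MCT2, had 47.4, 90.9 and 20.2 in NHE3-/- colon and 251.3, 129.7 and 158.6 in NHE3+/+ colon (log2 fold change -1.37, SE 0.36; limma adjusted p = 0.0351). Its NHE3-/- mean of 52.8 was under the filter level, so it was tested through its NHE3+/+ mean of 179.9, and its size depended on the pseudocount (-0.88 with 100, -1.93 with 1) and was -1.99 with NHE3-/- array 3 alone. Slc16a4, an SLC16 member of less settled substrate, had 110.5, 117.6 and 87.0 in NHE3-/- colon and 179.0, 238.3 and 204.6 in NHE3+/+ colon (log2 fold change -0.81, SE 0.23; limma adjusted p = 0.0483). The other Slc16a4 probe set was below the filter, with means of 36.6 in NHE3-/- and 35.7 in NHE3+/+ colon and overlapping groups. The calls of Slc16a4 and Slc16a7 were lost when arrays were left out: that of Slc16a4 without any of the 6 (-0.89 to -0.71) and that of Slc16a7 without NHE3-/- array 1 or 3 or any NHE3+/+ array (-1.55 to -1.06). Abcg2, an efflux pump of the luminal membrane, was higher, with 8688, 7113 and 8476 in NHE3-/- colon and 5551, 5803 and 5679 in NHE3+/+ colon (0.50, SE 0.10; limma adjusted p = 0.0119; 0.45, adjusted p = 0.0508 without NHE3-/- array 1).

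The remaining carriers did not pass. Slc16a11 had a log2 fold change of 0.99 (limma adjusted p = 0.107), which passed without NHE3+/+ array 1 (1.36), and Slc16a13 had -0.61 (adjusted p = 0.132) with arrays separated by genotype. Slc16a5, Slc16a6, Slc16a10 and Slc16a12 lay between -0.17 and 0.15, and the basigin relative Nptn and the sodium-dependent vitamin carrier Slc5a6 at -0.05 and -0.13. Slc5a12, the low-affinity relative of Slc5a8, was below the filter with means of 16.9 and 14.1 in NHE3-/- and NHE3+/+ colon, as were Slc16a8 and Slc16a14.

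Among the other receptors, Ffar4 (GPR120), which senses long-chain fatty acids, was lower. It had signals of 679.3, 759.6 and 621.9 in NHE3-/- colon and 1379.5, 985.7 and 995.4 in NHE3+/+ colon, with no overlap (log2 fold change -0.67, SE 0.16; limma adjusted p = 0.0221). The call was lost without NHE3-/- array 1 or 3 or NHE3+/+ array 1 (-0.66 to -0.51), with medians set equal (-0.55, adjusted p = 0.120) and with NHE3-/- array 3 alone (-0.80, adjusted p = 0.0728). Olfr78, an olfactory receptor that responds to acetate and propionate, had a log2 fold change of 0.25 (limma adjusted p = 0.520). The lactate receptor Hcar1 and the medium-chain fatty acid receptor Gpr84 were below the filter.

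Of the activating enzymes related to Acsm3, Acsm1, Acsm2 and Acsm5 were below the filter. The acetate-activating enzymes Acss1, mitochondrial, and Acss2, cytosolic and nuclear, had log2 fold changes of -0.35 (limma adjusted p = 0.0855) and -0.16 (adjusted p = 0.585). Acss1 signals were 1708, 1619 and 1459.8 in NHE3-/- colon and 1832, 2090.1 and 2207 in NHE3+/+ colon, which did not overlap but did not pass. Dimmer Acss2 probe sets had -0.42 and -0.31 and were not called (limma adjusted p = 0.119 and 0.549).

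Downstream of activation, 3 of 14 genes of butyrate oxidation and ketone body metabolism were higher in NHE3-/- colon and none was lower. The list median was 0.20. Over all genes tested, 6.38% were higher and 7.51% lower. Etfdh, which passes electrons from acyl-CoA dehydrogenases to ubiquinone, had 3419, 3467 and 3390.2 in NHE3-/- colon and 2429, 2111 and 2180.2 in NHE3+/+ colon (log2 fold change 0.61, SE 0.10; limma adjusted p = 0.00425). Oxct1, the transferase that activates acetoacetate for ketone use, had 0.45 (SE 0.10; limma adjusted p = 0.0167). A further Oxct1 probe set at 0.71 was called, and 2 at 0.21 and -0.34 were not. Echs1, the short-chain enoyl-CoA hydratase of the butyrate pathway, had 0.43 (SE 0.11; limma adjusted p = 0.0250). Acads, the short-chain dehydrogenase that takes butyryl-CoA as substrate, had -0.32 (SE 0.11; limma adjusted p = 0.0908) and did not pass, except with quantile normalization (-0.41, adjusted p = 0.0361). The call of Oxct1 was lost without NHE3-/- array 2 or 3 or NHE3+/+ array 1 (0.40 to 0.43). That of Echs1 was lost without any NHE3-/- array or NHE3+/+ array 2 or 3 (0.35 to 0.46). With quantile normalization Oxct1 (0.28, limma adjusted p = 0.0708) and Echs1 (0.33, adjusted p = 0.0634) did not pass either. Without the mean-variance trend none of the 3 called genes passed. With NHE3-/- array 3 alone none of the 3 passed (0.59 for Etfdh, 0.51 for Oxct1 and 0.38 for Echs1).

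For lactate and pyruvate, 3 of 5 genes were higher and none lower, against 6.38% higher and 7.51% lower over all genes tested. Ldha, the lactate dehydrogenase subunit of glycolytic cells, had 26619, 25976 and 35640.5 in NHE3-/- colon and 19544, 21045 and 20143 in NHE3+/+ colon (log2 fold change 0.52, SE 0.12; limma adjusted p = 0.0222). Mpc1, a subunit of the mitochondrial pyruvate carrier, had 0.52 (SE 0.12; limma adjusted p = 0.0212). Pdk4, the kinase that switches off pyruvate dehydrogenase, had 3948, 3555.5 and 4184 in NHE3-/- colon and 800.1, 1541 and 3279 in NHE3+/+ colon (1.27, SE 0.36; limma adjusted p = 0.0471). The Pdk4 signal of NHE3+/+ array 3 was close to those of the NHE3-/- arrays, and its call was lost without NHE3+/+ array 1 or 2 or any NHE3-/- array (0.78 to 1.33). That of Ldha was lost without any NHE3+/+ array (0.50 to 0.55), and that of Mpc1 without NHE3-/- array 3 or NHE3+/+ array 2 or 3 (0.44 to 0.47). The calls of Mpc1 and Pdk4 were also lost with quantile normalization, and those of Ldha and Pdk4 without a filter. Without the mean-variance trend none of the 3 called genes passed.

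Among signalling genes and hormones tied to the receptors, 2 of 7 were higher and 1 lower, beside the same 6.38% and 7.51% over all genes. Pyy, the peptide hormone that L cells release when short-chain fatty acids reach them, had 8842, 9975 and 11111.5 in NHE3-/- colon and 3089, 3541.5 and 2781 in NHE3+/+ colon (log2 fold change 1.66, SE 0.12; limma adjusted p = 2.42e-05). It was higher while the Ffar2 signal was lower on the same arrays. Gcg, which encodes glucagon-like peptides of the same cells, had -0.01 (SE 0.17; limma adjusted p = 0.982). Gna11, a Gq-class alpha subunit, had 0.48 (SE 0.10; limma adjusted p = 0.0155) and the beta-arrestin Arrb1 -0.52 (SE 0.13; limma adjusted p = 0.0292). The other Gna11 probe set had 0.31 and was not called (limma adjusted p = 0.105). The Arrb1 call was lost without any of the 6 arrays (-0.56 to -0.47) and the Gna11 call without NHE3-/- array 1 or 3 (0.42 to 0.45). The other signalling genes, Gnai2, Gnaq and Arrb2, had -0.33, -0.04 and -0.56 and did not pass, except Gnai2 without NHE3+/+ array 1 (-0.49, limma adjusted p = 0.0255). The dimmer Gnai2 probe set had -0.49 with all arrays and was not called (limma adjusted p = 0.0698), although its arrays separated by genotype.

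**Figure D2:**
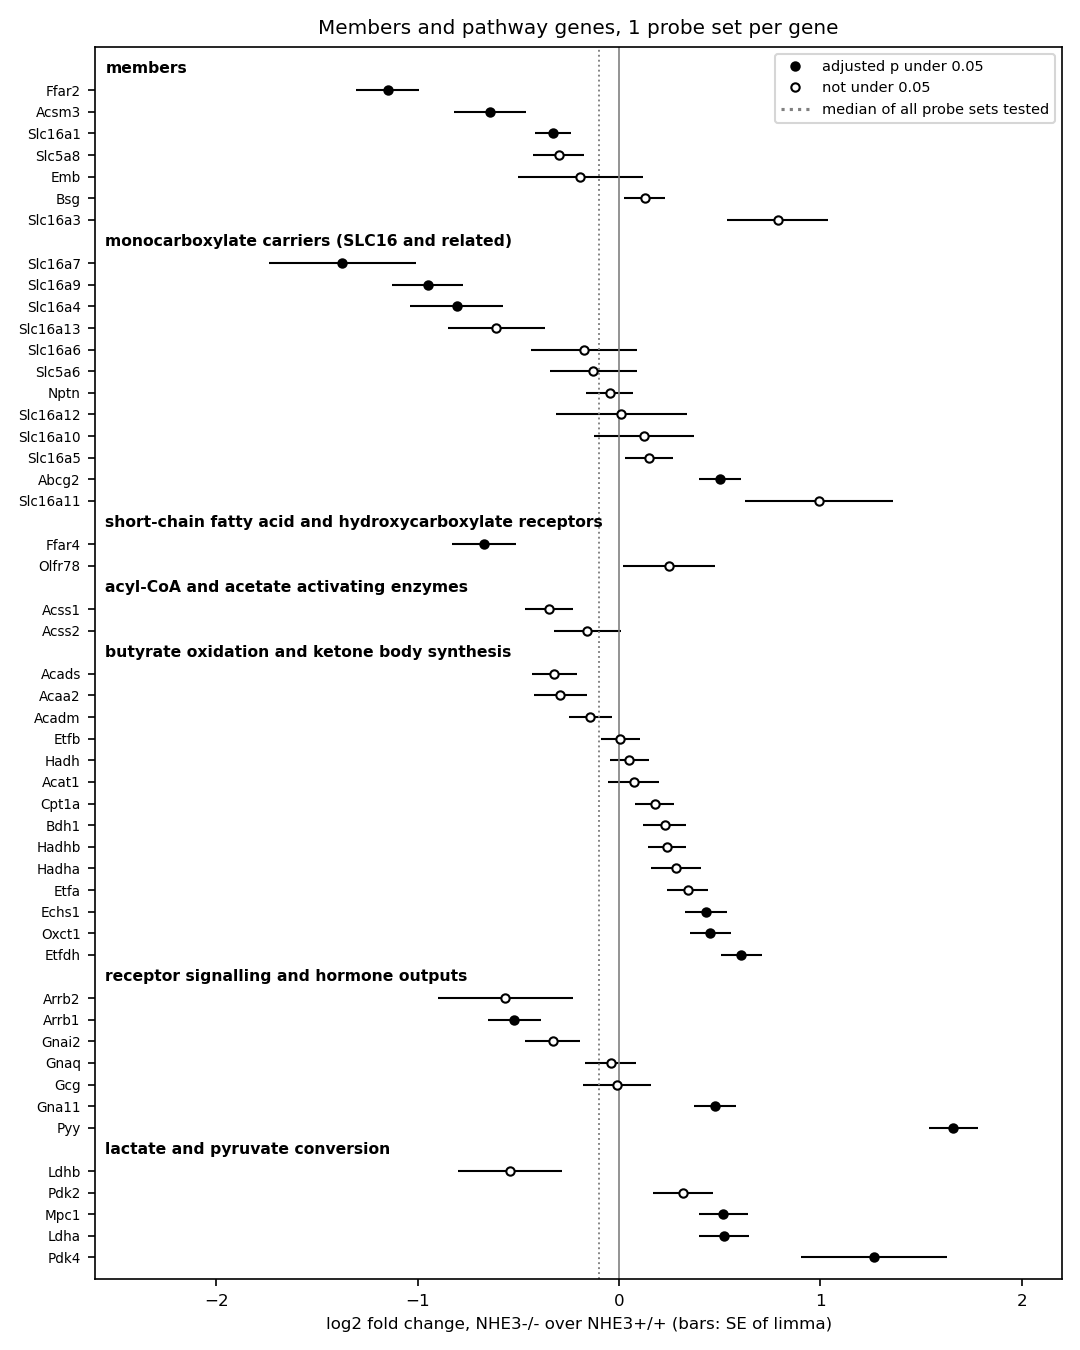
Log2 fold change (x axis, NHE3-/- over NHE3+/+, bars are limma's SE) of 7 tested members and 42 pathway genes by group, 1 probe set per gene; filled points have an adjusted p under 0.05 and the dotted line is the median of all probe sets tested, -0.10. Ffar2 at -1.15 is the lowest member and Pyy at 1.66 the highest gene, and the called oxidation and lactate genes lie right of 0.

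Markers of the cells that carry these genes also differed between the genotypes. Their counts stand beside 6.38% called higher and 7.51% called lower over all genes tested. Of 12 absorptive colonocyte markers, 6 were higher and 1 lower, and their summed signal ran from 298989 to 377466 in NHE3-/- and from 231939 to 280812 in NHE3+/+ colon, without overlap, in the direction opposite to Slc16a1, Acsm3 and Ffar2. The lower marker was Cdx2, an intestinal identity factor (-0.58; limma adjusted p = 0.0191). Of 8 enteroendocrine markers, 2 were higher (Pyy and Insl5) and 1 lower (Chga), with sums from 24488 to 30563 in NHE3-/- and from 16870.3 to 17856 in NHE3+/+ colon. That separation came from Pyy and Insl5. The sums of the 6 other markers overlapped, with 8991 to 11005.5 in NHE3-/- and 10463 to 11780.4 in NHE3+/+ colon. Pyy also belongs to the pathway list. Neutrophil markers, of a cell type that expresses Ffar2, summed to 1043 to 3441 in NHE3-/- and 297.9 to 482.1 in NHE3+/+ colon. That sum was mostly S100a8, with means of 1703 and 48.8, the NHE3+/+ mean being under the filter level. The other 8 neutrophil markers measured had means under 100 in both genotypes, and 1 of them, Ngp, was tested and did not pass.

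Macrophage and dendritic cell markers summed to 5999 to 8547 in NHE3-/- and 4308 to 7347.5 in NHE3+/+ colon, with 1 of 10 called, Cd14, which was higher. Adipocytes, which also express Ffar2 and Hcar2, were traced by 8 markers. Their sums were 2388 to 2525 in NHE3-/- and 2901 to 4743 in NHE3+/+ colon, without overlap. The largest part of the NHE3-/- sums was Pck1, with means of 1493 in NHE3-/- and 2045 in NHE3+/+ colon. Pck1 was not called (log2 fold change -0.43, limma adjusted p = 0.0759), and the sums of the other markers overlapped. Adipoq and Fabp4 were lower and Cidec higher among 5 tested. Adipoq had 36.4, 71.7 and 14.1 in NHE3-/- colon, a mean under the filter level, and 156.2, 526.3 and 90.3 in NHE3+/+ colon, so it was tested through the NHE3+/+ arrays. B and plasma cell markers summed to 10112 to 14571 and 11954 to 13155, and 1 of 6, Sdc1, was lower. Jchain and Sdc1 made up most of those sums. The B cell genes Ms4a1, Cd79a and Cd79b did not pass, with log2 fold changes of -1.42, -1.13 and -1.23 (limma adjusted p = 0.0784, 0.0562 and 0.0608). These were of a size like that of Ffar2, but the groups overlapped for Ms4a1 and Cd79a. On NHE3+/+ array 2 the B cell genes read 1161, 1011 and 786.8, against 308.3 to 587.2 on the other NHE3+/+ arrays. The list median was -0.78, and the sums of the 4 genes other than Jchain and Sdc1 were 633.6 to 1639 in NHE3-/- and 1418 to 3513 in NHE3+/+ colon, which overlapped. T cell sums were 667.9 to 708.4 in NHE3-/- and 463.2 to 1116 in NHE3+/+ colon, and smooth muscle sums 1350.4 to 2627 and 1762 to 2014, with none called. Small intestinal markers summed to 24107 to 30413 and 25882 to 31187.6, with 1 of 6, Slc5a1, higher. Pancreas markers summed to 4940 to 5579 and 5385 to 7604, with none called. No marker was at 0. The part of these cells in the member values was not tested.

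**Figure D3:**
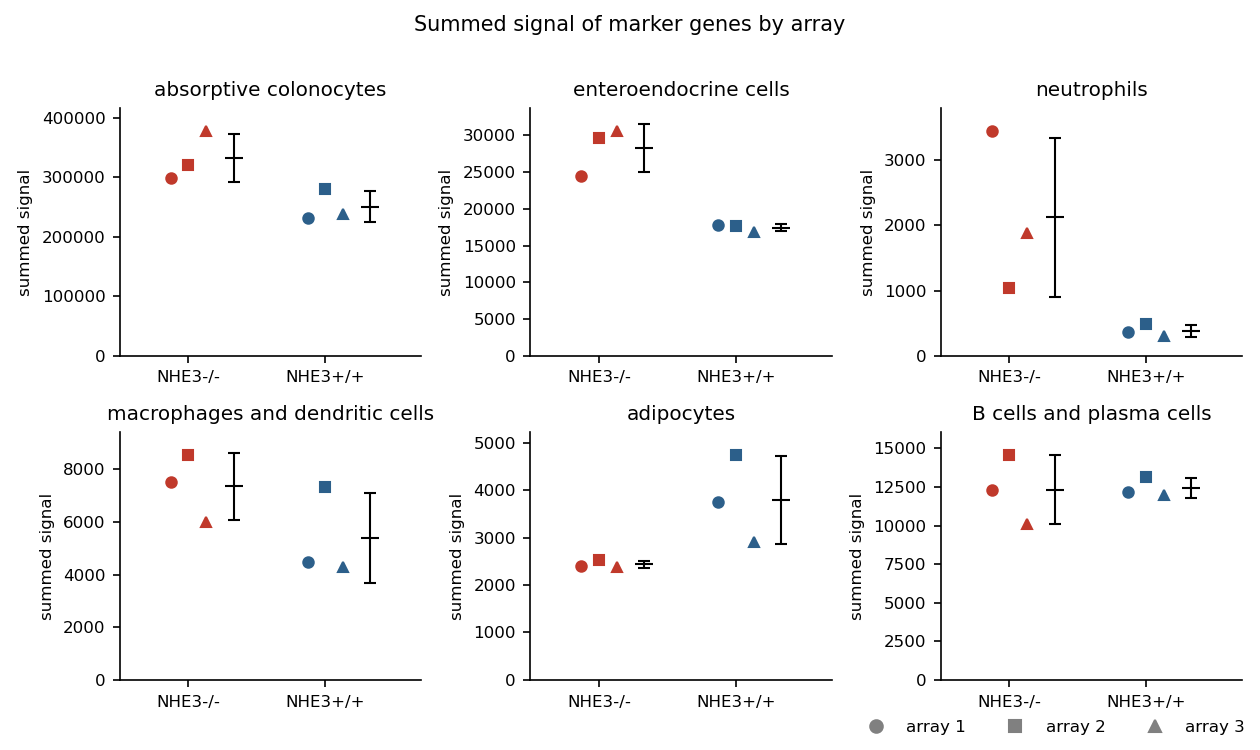
Summed signal (linear axis from 0) of the marker genes of 6 cell types on 3 NHE3-/- and 3 NHE3+/+ arrays, symbols marking the array number and black bars the mean and SD. Sums of absorptive, enteroendocrine and neutrophil markers lie higher on all NHE3-/- arrays, those of adipocyte markers lower, and those of macrophage and of B cell markers overlap.

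The members also differed in how much they depended on the processing. Both Ffar2 probe sets were called in all 16 fits, the one reported and 15 alternatives. Slc16a1 was called in 5 of the 16, Acsm3 in 7, Slc16a3 in 4, and Slc5a8 and Bsg in none. Directions were the same in every fit for Ffar2, Acsm3, Slc16a1, Slc16a3 and Slc5a8.

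**Figure D4:**
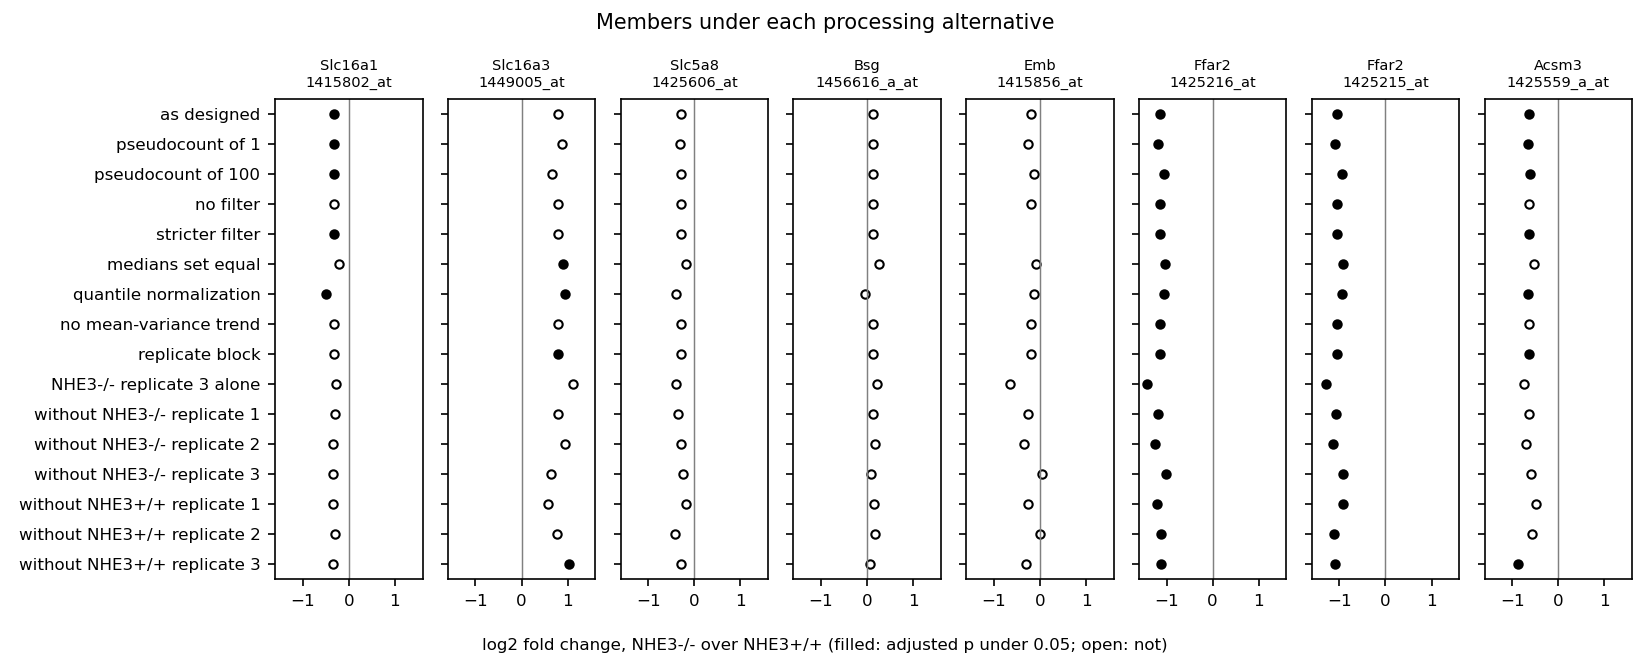
Log2 fold change (x axis, NHE3-/- over NHE3+/+) of the 8 tested member probe sets under the reported fit and 15 alternatives (y axis); filled points have an adjusted p under 0.05. Both Ffar2 panels are filled throughout between -1.42 and -0.93, Slc16a1 and Acsm3 stay left of 0 with many open points, and Slc16a3 stays right of 0 with 4 filled points.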

How the data were processed

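RNA of whole colon was hybridised to single-label Affymetrix MOE430 2.0 arrays, 3 NHE3-/- and 3 NHE3+/+. Each deposited column holds linear intensity, from 0.1 to 68917. The submitters' processing notes name GCOS without a version or settings. The values show a scaling to a mean of 500 after trimming 2% from each end. Detection calls were not used here. Of 45101 probe sets, 34958 name 1 gene in the platform annotation, and 34754 of those gene IDs matched RefSeq (GRCm38.p6) for current symbols.

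The deposited intensities were put on a log2 scale after adding 31.4, which is their 25th percentile. Array controls and probe sets with a mean under the 40th percentile were left out. NHE3-/- and NHE3+/+ arrays were compared with limma 3.58.1 in R 4.3.3 (two-sided; genotype alone in the model; eBayes with trend), adjusted by the Benjamini-Hochberg method at 0.05. The fit was tested on simulated data. An exact permutation test of 3 against 3 arrays cannot go below p = 0.1 and was not used for calls. Intervals are at 95%. The number of arrays limits the precision.

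The members, the pathway and marker lists and the alternatives were chosen with earlier results of these data known. All members were named, with pathway genes that passed, relatives of members that did not, and for the member of largest change the 3 genes of most similar signal. Naming of other uncalled pathway genes and the marker sums without single genes were chosen after values were seen. Listed genes that no probe set reads alone were not analysed here.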

Additional observations from a re-analysis of the deposited data

How the results depend on the processing

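The 4 lower member probe sets numbered 2 with NHE3-/- array 3 alone, with medians set equal, without a filter and without the mean-variance trend, and 2 to 3 when 1 array was left out. No member was called higher as reported, but 1, Slc16a3, was with medians set equal, with quantile normalization and with the replicate block, and 0 to 1 when 1 array was left out. Of the pathway list, 9 genes were higher as reported, 3 with NHE3-/- array 3 alone, 1 without the trend, 4 with quantile normalization and 4 to 8 with 1 array left out. The 5 lower genes numbered 2 with NHE3-/- array 3 alone, with medians set equal or without the trend, 3 without a filter, with a stricter filter, with quantile normalization or with the replicate block, and 1 to 3 with 1 array left out. Over all probe sets 1342 were higher and 1685 lower as reported. The counts were 767 higher with NHE3-/- array 3 alone, 511 higher and 558 lower without the trend, 1595 higher and 738 lower with medians set equal, and 839 to 1211 higher and 774 to 1385 lower with 1 array left out. The causes were not tested.

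Same-numbered arrays did not deviate together (correlations of -0.04 to 0.03). With 3 arrays per genotype this cannot exclude that the arrays were paired. With the replicate block Slc16a3 passed (0.79, limma adjusted p = 0.0442) and Slc16a1 did not (-0.33, adjusted p = 0.0776). In that fit 3 member probe sets, those of Ffar2 and Acsm3, and 3 pathway genes were lower and 9 pathway genes higher. No call changed sign in any alternative. Among the uncalled genes named with a log2 fold change, members and pathway genes, those that did were Bsg (-0.046, quantile normalization), Emb (0.038 without NHE3-/- array 3, from -0.35 to 0.038 with 1 array left out), Slc16a10 (-0.055 without NHE3-/- array 3, from -0.055 to 0.29 with 1 array left out), Slc16a12 (-0.34 with NHE3-/- array 3 alone, and from -0.12 to 0.19 with 1 array left out, below 0 at -0.11, -0.04, -0.01 and -0.12), Slc5a6 (0.056 with quantile normalization, 0.032 without NHE3+/+ array 1, from -0.30 to 0.032 with 1 array left out), Nptn (0.073 with medians set equal, 0.074 without NHE3+/+ array 1, from -0.13 to 0.074 with 1 array left out), Gnaq (0.077 with medians set equal, 0.015 with quantile normalization, 0.0097 without NHE3-/- array 3, 0.024 without NHE3+/+ array 3, from -0.11 to 0.024 with 1 array left out) and Gcg (0.11 with medians set equal, 0.076 without NHE3-/- array 3, 0.17 without NHE3+/+ array 1, from -0.19 to 0.17 with 1 array left out). Without detection calls, a signal near the filter cannot be told from background, which limits what Hcar2, Emb and the dim SLC16 carriers can show.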

Other observations

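NHE3+/+ array 3 lay nearest to the NHE3-/- arrays for Slc16a3 (329.4, against 163.7 and 223.4 on NHE3+/+ arrays 1 and 2), Acsm3 (1762, against 3037 and 2658) and Pdk4 (3279, against 800.1 and 1541). It lay farthest from them for Slc16a9 (1102, against 793.0 and 756.7) and Slc16a11 (48.2, against 217.9 and 136.4). For Ffar2 it was within the range of the other NHE3+/+ arrays on both probe sets. NHE3+/+ array 2 had the highest NHE3+/+ sums of adipocyte, macrophage, T cell, B cell, absorptive and neutrophil markers. Adipocyte markers summed to 4743 there, against 3745 and 2901 on NHE3+/+ arrays 1 and 3. The macrophage sums were 7347.5 against 4480 and 4308, and the T cell sums 1116 against 463.2 and 492.0. Array 2 was not the highest NHE3+/+ array for enteroendocrine, smooth muscle, small intestinal or pancreas markers.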
